A study of Mus musculus with 6 samples.

Results

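Pre-mRNA splicing factors of the SR, hnRNP, SF3 and small nuclear ribonucleoprotein families were compared between stem cells and their dividing progeny in the mouse incisor. The genes were all protein-coding entries whose symbol begins with Srsf and a number, Hnrnp, Sf3a or Sf3b and a number, or Snrp, with the imprinted gene Snrpn left out. This gave 51 of the 23718 listed genes, of which 11 were SR genes, 20 hnRNP genes, 9 SF3 genes and 11 Snrp genes. All 51 had a mean value of at least 1 over the 6 samples and entered the test. The RNA came from incisors of mice aged 1 month, given as C57BL/6 in the labels while the methods call the background mixed, from which regions were isolated on frozen sections by laser capture microdissection, that is, by cutting labelled cells out of the tissue with a laser. Gli1-CreER;tdT mice gave the 3 samples labelled mesenchymal stem cells (MSC), and Axin2-CreER;tdT mice gave the 3 labelled transit amplifying cells (TAC), the dividing progeny. In both lines tamoxifen, given 1 day before collection, let the Cre recombinase switch on the red fluorescent protein tdTomato in cells that used the driver gene. Each group therefore holds a single driver line, so genotype and captured region cannot be told apart. Whatever other cells lay in a captured region were included.

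Splicing removes introns from nuclear transcripts and joins the exons. Small nuclear ribonucleoproteins (snRNPs) are each built on a short U-rich RNA, which in most of them is held in a ring of Sm proteins. They recognise the ends of the intron and the branch site inside it, and the SF3 proteins anchor the U2 particle at the branch site. SR proteins carry arginine-serine repeats, bind exons and generally favour their inclusion, whereas many hnRNP proteins coat the transcript and favour skipping, so the balance of both families is known to shift the choice of exons. Many SR and hnRNP genes also limit their own output by splicing in an exon that sends the transcript to decay. The values here are gene totals, which do not separate such transcripts from coding ones.

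The replicate number separated the libraries more than the group did. Replicates 1 and 2 of either group held between 20203159 and 25567244 estimated reads, with 8.28% to 9.07% of them from mitochondrial ribosomal RNA, whereas the replicate 3 libraries held 59793645 (MSC) and 108156380 (TAC) with 0.236% and 0.112%. Although replicate 3 held more reads, 42.9% of the listed genes had no read in MSC replicate 3 and 28% in TAC replicate 3. In replicates 1 and 2 these shares were 6.56% to 8.04%. Replicates 1 and 2 are called 1 library set here and replicate 3 the other. Replicates 1 and 2 differed from each other by 10.3 times (MSC) and 8.33 times (TAC) the variance that counting reads would give, and replicate 3 differed from them by 1410 to 1780 times. The labelled populations were checked against marker genes. The driver genes overlapped between the groups, with Gli1 at 256, 245 and 422 in MSC and 153, 141 and 396 in TAC (limma adjusted p = 0.718) and Axin2 at 58.3, 48.0 and 12.01 in MSC and 56.8, 63.9 and 34.1 in TAC (limma adjusted p = 0.758), in each case for replicates 1, 2 and 3. The 10 dental mesenchyme genes summed to between 1447 and 1811 in every library, with Barx1 without a read in MSC replicate 3. Members of this sum differed in opposite directions. Pax9 was at 120, 107 and 173 in MSC and 38.8, 37.1 and 72.1 in TAC (limma adjusted p = 0.170). Dlx1 was at 252, 240 and 461 in MSC and 138, 146 and 183 in TAC (limma adjusted p = 0.347). Msx2 was at 43.6, 44.3 and 26.9 in MSC and 109, 107 and 104 in TAC (limma adjusted p = 0.106). Msx1 was at 114, 114 and 52.8 in MSC and 146, 150 and 136 in TAC (limma adjusted p = 0.509). The summed values of 10 proliferation genes were 241, 228 and 156 for MSC and 1099, 1121 and 422 for TAC, in the same order of replicates as all values here, and only in MSC replicate 3 were any of them, Bub1 and Aurkb, without a read. The 9 smooth muscle and pericyte genes summed to between 1254 and 1719 in MSC and between 107 and 147 in TAC, and 9 endothelium genes to between 298 and 310 in MSC and between 116 and 128 in TAC. The 7 odontoblast genes summed to 14827, 14732 and 2439 in MSC and 15949, 15880 and 12577 in TAC, with Dmp1 and Ibsp without a read in MSC replicate 3. Macrophage genes (10) summed to between 93.8 and 255 in MSC and between 52.7 and 141 in TAC, and Schwann cell genes (8) to between 60.9 and 161 in MSC and between 35.8 and 56.9 in TAC. The 10 dental epithelium genes summed to 3663, 3601 and 339 in MSC and 3269, 3340 and 2410 in TAC, so that MSC replicate 3 was lowest. The enamel matrix genes Amelx (2503, 2492 and 80.6), Ambn (820, 770 and 181) and Enam (308, 309 and 7.07) were lower in MSC replicate 3 than in MSC replicates 1 and 2, and Epcam and Cdh1 had no read there. The low members Krt14 (12.9, 8.84 and 16.0) and Krt5 (7.75, 10.2 and 15.0) were not lower there. The part of these cell populations in the splicing factor values was not tested, and in bulk tissue fewer cells of a type and less RNA per cell cannot be told apart.

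No splicing factor gene passed the adjusted threshold between TAC and MSC, but most had the higher value in TAC. In limma with Benjamini-Hochberg adjustment over all 15391 genes tested, 0 of the 51 had an adjusted p under 0.05, against 65 genes or 0.422% of all, of which 6 (0.039% of all) were higher in TAC. The lowest adjusted p among them was 0.183, for Snrpf. At an unadjusted p under 0.05, the threshold named by the methods of the study, 19 of the 51 were higher in TAC, against 5.42% of all genes tested, and 0 were higher in MSC, against 6.43%. Those 19 were 8 Snrp, 8 hnRNP, 2 SF3 and 1 SR gene. With replicates 1 and 2 of each group averaged and counted as 1 sample, the count of 19 became 3, and the share of all genes became 1.83%. In 24 of the 51 every TAC sample lay above every MSC sample, against 12.3% of all genes tested, and in 0 was the order the opposite, against 12.2%. The log2 fold change was above 0 in 46 of 51, or 90.2%, against 51.5% of all genes tested.

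The medians of the classes differed, although the difference between classes was not tested. On the log2(value + 1) scale, where a value is a read number scaled to its library, the median fold change TAC minus MSC was 1.41 for the Snrp genes, 0.58 for the hnRNP genes, 0.46 for the SF3 genes and 0.26 for the SR genes, beside 0.026 for all genes tested. Without MSC replicate 3 the medians of the hnRNP, SF3 and SR genes were 0.47, 0.46 and 0.66, so that the SR genes stood above the other two. Summed over its 11 genes, the Snrp class reached 107, 105 and 125 in the MSC samples and 219, 221 and 358 in TAC. The hnRNP class summed to 2759, 2707 and 2661 in MSC and to 4281, 4256 and 3201 in TAC. Neither class overlapped between the groups. The SF3 sums were 561, 564 and 549 in MSC and 687, 675 and 567 in TAC, with TAC replicate 3 close to the MSC samples. The SR sums were 1147, 1159 and 2126 in MSC and 1191, 1224 and 2084 in TAC, and here replicate 3 stood apart from replicates 1 and 2 by far more than TAC from MSC.

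**Figure D1:**
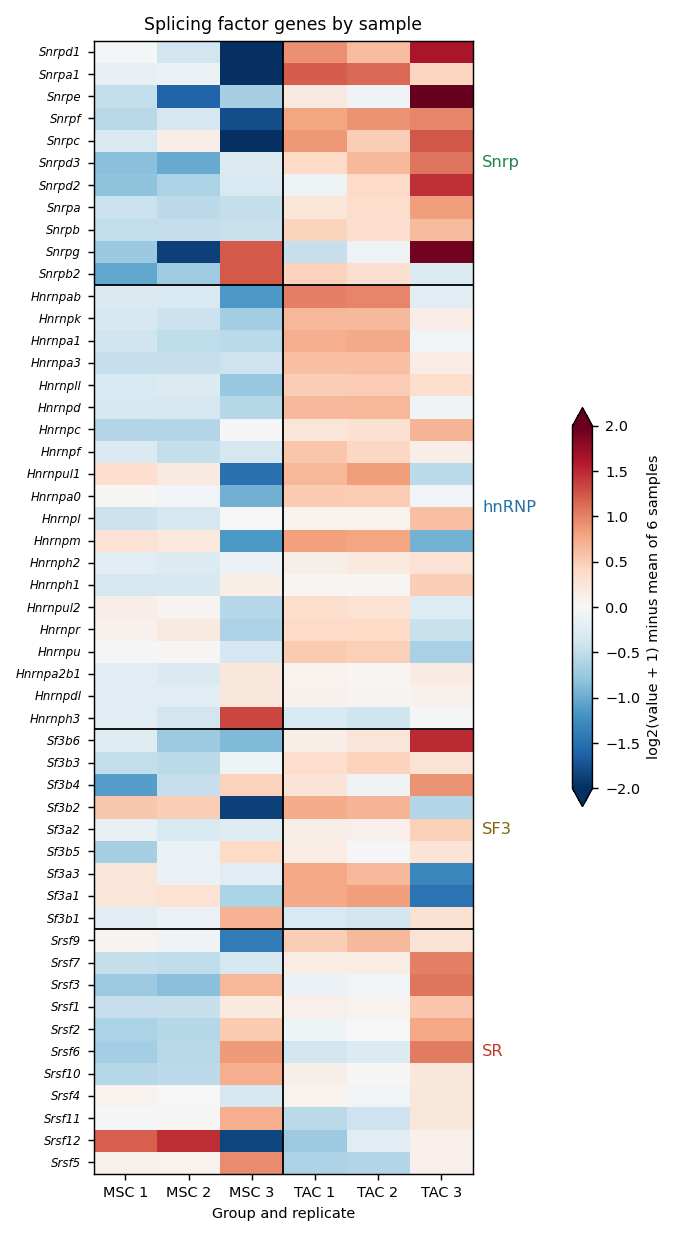
Each row is one of the 51 splicing factor genes and each column a sample. The colour gives log2(value + 1) minus the gene's mean over the 6 samples, with darker ends standing for differences beyond 2 in either direction. Rows are grouped by class and ordered within it by log2 fold change. Most Snrp and hnRNP rows are blue in MSC and red in TAC, while many SR rows are red in the replicate 3 columns of both groups.

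The Snrp class had the highest median fold change. The Sm proteins B, D1, D2, D3, E, F and G, which form the ring around the snRNA, are encoded by Snrpb, Snrpd1, Snrpd2, Snrpd3, Snrpe, Snrpf and Snrpg. Snrpf (mm10 chr10:93583029-93589706, minus strand) had values of 9.25, 11.0 and 3.41 in MSC and of 24.98, 27.0 and 28.5 in TAC. The groups did not overlap, and the log2 fold change was 1.77 (SE 0.46, n = 3 per group, limma adjusted p = 0.183). The library sets gave 1.28 (replicates 1 and 2) and 2.74 (replicate 3). A listed pseudogene of Snrpf was at 2.46, 1.90 and 10.9 in MSC and at 6.01, 7.34 and 6.60 in TAC, so in MSC replicate 3 it stood above the gene itself, and how reads were shared between them was not tested. Snrpb (chr2:130171414-130179403, minus strand), with 28.5, 29.0 and 29.6 in MSC and 55.5, 51.5 and 63.2 in TAC, had the tightest MSC values of the class. It differed by 0.94 on the log2 scale (SE 0.25, limma adjusted p = 0.188). Snrpd3 (chr10:75517551-75537381, plus strand) was at 5.33, 4.61 and 8.35 in MSC and at 13.9, 16.8 and 22.7 in TAC (log2 fold change 1.41, SE 0.41, limma adjusted p = 0.234). The fold changes of Snrpb and Snrpd3 were close in both library sets, at 0.87 and 1.07 for Snrpb and at 1.45 and 1.34 for Snrpd3 in replicates 1 and 2 and in replicate 3.

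The other Sm genes differed in how alike the library sets were. Snrpd2 had values of 7.77, 8.83 and 11.4 in MSC and of 13.2, 18.9 and 40.8 in TAC. Snrpd1 had 5.76 and 4.29 in MSC replicates 1 and 2, no read in MSC replicate 3, and 11.9, 9.49 and 20.3 in TAC. Its log2 fold change of 2.11 (SE 0.80, limma adjusted p = 0.356) was the largest of the 51 and was 0.96 in replicates 1 and 2 alone. Snrpe had 4.32, 1.45 and 3.71 in MSC and 7.37, 6.05 and 45.2 in TAC. Its log2 fold change was 1.83, at an unadjusted p of 0.0559 in limma, and 0.96 without TAC replicate 3, the highest sample. Snrpg, at 5.19, 1.81 and 23.2 in MSC and 6.5, 8.59 and 38.4 in TAC, overlapped between the groups, although each TAC value was above the MSC value of the same number.

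Proteins particular to single snRNPs showed the same order in most cases. Snrpa and Snrpc encode the A and C proteins of the U1 particle, which binds the upstream end of the intron. Snrpa (chr7:27187005-27196271, minus strand) had 23.9, 22.3 and 23.1 in MSC and 38.4, 41.4 and 58.3 in TAC (log2 fold change 0.94, SE 0.28, limma adjusted p = 0.247). Snrpc had 7.70, 10.7 and 0.969 in MSC and 18.5, 14.1 and 24.5 in TAC. Snrpa1 and Snrpb2 encode partner proteins of the U2 particle, which bind its RNA together. Snrpa1 was at 6.24, 6.37 and 0.399 in MSC and at 17.4, 16.4 and 9.76 in TAC, without overlap. Snrpb2 was at 3.46, 4.61 and 20.4 in MSC and at 11.6, 10.4 and 6.53 in TAC. The order of the groups was thus reversed between the library sets for Snrpb2, which was the only Snrp gene without a higher TAC value in each same-numbered pair.

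**Figure D2:**
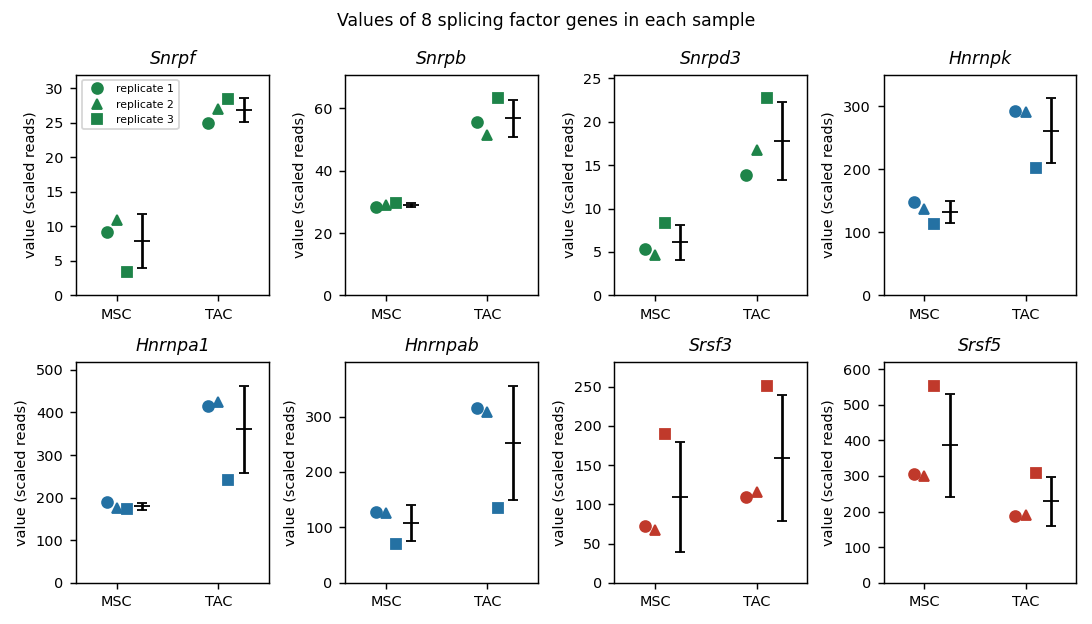
Values (reads scaled to the library) of 8 splicing factor genes are plotted for each MSC and TAC sample, with the marker shape giving the replicate number. The bars beside the points are the mean ± SD of 3 samples, and each vertical axis starts at 0. Snrpf, Snrpb, Snrpd3, Hnrnpk, Hnrnpa1 and Hnrnpab do not overlap between the groups, whereas for Srsf3 and Srsf5 replicate 3 lies above replicates 1 and 2 in both groups.

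Among the hnRNP genes, 8 of 20 had an unadjusted p under 0.05, against 5.42% of all genes tested, and 10 had no overlap between the groups, against 12.3%, all with TAC higher. Hnrnpk (chr13:58391142-58403343, minus strand), whose product binds C-rich RNA and DNA, had values of 148, 137 and 113 in MSC and of 292, 290.4 and 202 in TAC. All TAC values were above the MSC values, with a log2 fold change of 0.97 (SE 0.30, n = 3 per group, limma adjusted p = 0.263). Hnrnpab (chr11:51600100-51606847, minus strand), which encodes a single-stranded nucleic acid binding protein, had 128, 126 and 69.9 in MSC and 316, 309 and 134 in TAC. Its log2 fold change was the largest of the class, at 1.17 (SE 0.44, limma adjusted p = 0.355), with replicate 3 lower than replicates 1 and 2 in either group. With the replicate number as a block in the limma fit, these 2 genes passed the adjusted threshold, Hnrnpab at an adjusted p of 0.0454 and Hnrnpk at 0.0459, against 0.604% of all genes tested called higher in TAC and 0.884% called higher in MSC by that fit. At an unadjusted p under 0.05 the block fit gave 26 members higher in TAC, against 9.43% of all, and 2 higher in MSC, against 10.9%.

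The hnRNP A proteins bind exonic and intronic silencers and are among the most abundant nuclear RNA-binding proteins. Hnrnpa1 (chr15:103240432-103244955, plus strand) had values of 189, 176 and 173 in MSC and of 414, 425 and 242 in TAC. It differed by 0.96 on the log2 scale (SE 0.34, limma adjusted p = 0.327), and by 1.20 within replicates 1 and 2 against 0.48 within replicate 3. Hnrnpa3 was at 133, 132 and 136 in MSC and at 277, 276 and 202 in TAC (log2 fold change 0.89, limma adjusted p = 0.268). Hnrnpa2b1 differed little, with 413, 397 and 569 in MSC and 508, 498 and 543 in TAC, and the groups overlapped. Hnrnpa0 was higher in each same-numbered pair, at 97.0, 92.1 and 48.7 in MSC and 138, 136 and 91.9 in TAC, with TAC replicate 3 just below MSC replicates 1 and 2.

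Further members without overlap had other roles. Hnrnpc, whose product binds uridine tracts and packages nascent transcripts, had 55.7, 55.8 and 82.0 in MSC and 99.6, 105 and 136 in TAC (log2 fold change 0.82, limma adjusted p = 0.327). Hnrnpd, known as an AU-rich element binding factor in mRNA decay, had 65.9, 65.1 and 55.1 in MSC and 131, 132 and 78.8 in TAC (log2 fold change 0.83, limma adjusted p = 0.338). Hnrnpf, which binds guanine tracts, had 80.9, 70.3 and 77.7 in MSC and 145, 132 and 108 in TAC, a log2 fold change of 0.74. Hnrnpll, known for its part in alternative splicing in lymphocytes, had 43.9, 44.9 and 32.0 in MSC and 76.9, 77.9 and 69.6 in TAC, with the lowest adjusted p of the class, 0.235 in limma. Hnrnpl and Hnrnph2 also did not overlap, with log2 fold changes of 0.50 and 0.40.

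The other hnRNP genes overlapped between MSC and TAC. Hnrnpu, which encodes a scaffold protein of the nuclear interior, had 416, 430 and 337 in MSC and 609, 595 and 269.6 in TAC, so TAC replicate 3 was the lowest of all 6 samples. Hnrnph3 was the only hnRNP gene with a log2 fold change below 0, at -0.50 (SE 0.48, limma adjusted p = 0.742). Its values were 34.1, 31.1 and 103 in MSC and 32.4, 30.2 and 38.9 in TAC, and the difference lay in the replicate 3 libraries. Hnrnpm, Hnrnpr, Hnrnpul1, Hnrnpul2, Hnrnph1 and Hnrnpdl had log2 fold changes between 0.16 and 0.66.

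The promoter sequences of the genes were searched for short motifs known from the promoters of widely used genes. RefSeq start sites on GRCm38.p6 were matched for 45 of the 51, and the 250 bases before each start were read on both strands. The CCAAT box, written CCAAT and bound by the factor NF-Y, occurred in 12 of 18 hnRNP, 3 of 9 Snrp, 3 of 11 SR and 2 of 7 SF3 promoters, beside 36.5% of the 9985 protein-coding promoters of tested genes. The motif CCGGAAG, a core bound by ETS factors, occurred in 6 of 7 SF3, 4 of 11 SR, 3 of 9 Snrp and 2 of 18 hnRNP promoters, beside 14.0% of all. GGGCGG, the letters of an SP factor site, was in 10 of 11 SR, 13 of 18 hnRNP, 5 of 9 Snrp and 4 of 7 SF3 promoters and in 60.4% of all. CACGTG was in 3 of the 45 and in 8.36% of all, and TATAAA in 5 of the 45 and in 5.91% of all. These counts describe letters in a window and not binding. Some matched starts lay far inside the deposited gene, by 2349 bases for Hnrnpl, 1402 for Hnrnpm, 1333 for Snrpa1 and 1226 for Hnrnpk. For Sf3a2 and Snrpd3 the distances were 537 and 491 bases. Windows of these genes may miss the promoter at the deposited start. Hnrnpl, Hnrnpk and Snrpd3 are among the CCAAT counts, and Sf3a2 is among the CCGGAAG counts. Promoters with several CCAAT copies are shown for genes without overlap and with TAC higher, chosen after their values were seen (Hnrnpa1 at chr15:103240147-103240396, plus strand, Hnrnpab at chr11:51606882-51607131, minus strand, Hnrnpc at chr14:52104022-52104271, minus strand, and Snrpf at chr10:93589659-93589908, minus strand). They are set beside the SR genes that were lower in every TAC sample than in its same-numbered MSC sample and hold no CCAAT (Srsf5 at chr12:80945249-80945498, plus strand, and Srsf11 at chr3:158036607-158036856, minus strand). Each runs 5′ to 3′ on the gene's strand and ends at the base before the start, and capitals mark CCAAT or CCGGAAG read on either strand.
Hnrnpa1: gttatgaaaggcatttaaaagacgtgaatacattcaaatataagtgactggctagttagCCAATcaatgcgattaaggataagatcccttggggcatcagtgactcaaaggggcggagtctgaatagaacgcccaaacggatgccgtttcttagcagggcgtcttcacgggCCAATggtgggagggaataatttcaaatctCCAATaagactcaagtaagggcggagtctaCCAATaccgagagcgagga
Hnrnpab: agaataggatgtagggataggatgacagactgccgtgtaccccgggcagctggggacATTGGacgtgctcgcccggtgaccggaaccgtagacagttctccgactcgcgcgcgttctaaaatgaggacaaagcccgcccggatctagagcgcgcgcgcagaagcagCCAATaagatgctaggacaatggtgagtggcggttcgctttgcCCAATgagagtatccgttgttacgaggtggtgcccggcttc
Hnrnpc: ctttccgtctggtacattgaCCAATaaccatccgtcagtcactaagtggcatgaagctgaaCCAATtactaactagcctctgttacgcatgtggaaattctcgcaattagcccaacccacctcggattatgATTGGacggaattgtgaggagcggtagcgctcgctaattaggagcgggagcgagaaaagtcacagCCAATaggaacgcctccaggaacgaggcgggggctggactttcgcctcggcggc
Snrpf: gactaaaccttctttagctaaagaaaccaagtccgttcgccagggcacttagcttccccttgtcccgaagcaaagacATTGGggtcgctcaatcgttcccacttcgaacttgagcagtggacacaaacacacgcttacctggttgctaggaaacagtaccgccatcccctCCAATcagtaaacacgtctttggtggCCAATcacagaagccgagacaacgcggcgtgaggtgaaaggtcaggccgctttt
Srsf5: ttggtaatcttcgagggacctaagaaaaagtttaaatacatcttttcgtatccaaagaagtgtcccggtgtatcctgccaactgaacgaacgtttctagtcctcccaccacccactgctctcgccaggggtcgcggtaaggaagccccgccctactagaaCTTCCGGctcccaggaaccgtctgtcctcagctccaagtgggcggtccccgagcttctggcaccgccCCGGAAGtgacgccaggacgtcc
Srsf11: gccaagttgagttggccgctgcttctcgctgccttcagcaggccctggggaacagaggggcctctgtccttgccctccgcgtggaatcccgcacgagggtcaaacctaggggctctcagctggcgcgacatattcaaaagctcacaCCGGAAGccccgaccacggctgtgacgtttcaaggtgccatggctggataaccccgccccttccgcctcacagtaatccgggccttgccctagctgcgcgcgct
The Hnrnpa1 and Hnrnpc windows hold 4 CCAAT copies each and those of Hnrnpab and Snrpf hold 3. Srsf5 holds 2 copies of CCGGAAG and Srsf11 holds 1. The printed genes are not typical of all: Hnrnpr holds 4 CCAAT copies with a log2 fold change of 0.23, and Hnrnpd, Hnrnpf, Snrpa and Srsf7 hold none with log2 fold changes of 0.83, 0.74, 0.94 and 0.88.

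The SF3 proteins of the U2 particle were mixed. Sf3b3 (chr8:110810239-110846787, minus strand), a large scaffold subunit of SF3b, had 54.1, 53.0 and 72.1 in MSC and 97.8, 106 and 94.2 in TAC. The groups did not overlap, with a log2 fold change of 0.74 (SE 0.26, limma adjusted p = 0.318). Sf3b6, which encodes the small subunit that contacts the branch point adenosine, was low, at 6.13, 4.09 and 3.59 in MSC and 8.21, 8.99 and 22.7 in TAC. Its log2 fold change of 1.24 was the largest of the class (SE 0.53, limma adjusted p = 0.422). Sf3b1, the subunit that clamps the branch site helix, was the only SF3 gene with a fold change below 0, with 172, 185 and 327 in MSC and 162, 155 and 248 in TAC (log2 fold change -0.24, SE 0.37, limma adjusted p = 0.867). Sf3a2 did not overlap, at 22.7 to 25.5 in MSC and 30.6 to 39.6 in TAC. Sf3a1 and Sf3a3, the other subunits of SF3a, were higher in TAC in replicates 1 and 2 and lower in TAC in replicate 3. The fold changes of Sf3a1 in the sets were 0.53 and -0.84, and those of Sf3a3 were 0.65 and -1.07. Sf3b2, Sf3b4 and Sf3b5 overlapped between the groups, with log2 fold changes of 0.55, 0.74 and 0.26.

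The SR genes held 3 of the 5 members with a log2 fold change below 0. Srsf7 (chr17:80200089-80207305, minus strand), which also acts as an adaptor for mRNA export, was the only SR gene with an unadjusted p under 0.05. It had 47.8, 47.0 and 53.6 in MSC and 74.9, 74.6 and 137 in TAC (log2 fold change 0.88, SE 0.32, n = 3 per group, limma adjusted p = 0.341). Srsf9 was the only other SR gene without overlap, at 28.2, 25.6 and 9.65 in MSC and 38.4, 43.1 and 32.9 in TAC, and its log2 fold change of 0.94 was the largest of the class, at an unadjusted p of 0.0657 in limma.

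The best-studied SR proteins were higher in each TAC sample than in the MSC sample of the same number, but overlapped between the groups because MSC replicate 3 lay above TAC replicates 1 and 2. Srsf1, the founding member of the family, had 108, 108 and 171 in MSC and 160, 157 and 219.9 in TAC (log2 fold change 0.49, SE 0.32, limma adjusted p = 0.610). Srsf2, known as SC35 and found in nuclear speckles, had 106, 109 and 235 in MSC and 154, 162 and 282 in TAC (log2 fold change 0.46). Srsf3, the shortest SR protein and also an export adaptor, had 71.8, 66.6 and 189.9 in MSC and 109.9, 115 and 251 in TAC (log2 fold change 0.60, limma adjusted p = 0.709). Srsf6 followed the same order, at 125, 136 and 362 in MSC and 155, 166 and 412 in TAC. With library set as a batch term in limma, Srsf1, Srsf2, Srsf3 and Srsf7 had adjusted p values of 0.0245, 0.0407, 0.0236 and 0.0292, and with the replicate block 0.120, 0.147, 0.110 and 0.112.

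Srsf5 and Srsf11 had the opposite sign. Srsf5 (chr12:80945504-80950507, plus strand) had 305, 300.1 and 554 in MSC and 187, 190.3 and 309 in TAC. In replicates 1 and 2 and in replicate 3 alike, the TAC value was below the MSC value, with log2 fold changes of -0.68 and -0.84. The groups overlapped only because TAC replicate 3 exceeded the lower MSC values, and over 6 samples it was -0.73 (SE 0.40, limma adjusted p = 0.533). Srsf11 (chr3:158010473-158036639, minus strand) had 219.6, 230.3 and 376 in MSC and 156, 168 and 266 in TAC, with log2 fold changes of -0.47 and -0.50 in the sets and -0.48 overall (SE 0.37, limma adjusted p = 0.679). These 2 genes, with Hnrnph3 and Sf3b1, were the 4 of 51 that were lower in TAC in all 3 same-numbered pairs, against 26.4% of all genes tested. In the opposite direction, 37 of 51 were higher in TAC in all 3 pairs, against 24.6% of all. Under the batch term Srsf5 and Srsf11 passed the threshold at adjusted p values of 0.00638 and 0.0196 in limma, and under the replicate block they did not, at 0.0565 and 0.0974. Srsf12, a low-level SR protein gene, was at 8.95, 11.1 and 0.220 in MSC and at 1.62, 2.69 and 3.67 in TAC. Srsf4 and Srsf10 overlapped, with log2 fold changes of 0.16 and 0.24.

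The Snrp class had the highest median log2 fold change in both library sets. Its medians were 1.02 (replicates 1 and 2) and 1.76 (replicate 3), beside -0.046 and 0.042 for all genes tested. The hnRNP medians were 0.52 and 0.48, the SF3 medians 0.53 and 0.38, and the SR medians 0.55 and 0.36. Of the 51 genes, 37 were above 0 in both sets, against 30.1% of all genes tested, and 4 were below 0 in both, against 31.2%. The remaining 10 had opposite signs, against 38.8% of all. By limma's interaction term, the fold change differed between the sets at an adjusted p under 0.05 for 33 of 51, against 57.2% of all, and for 9 of these with opposite signs, against 27.8%. That test rests on the small spread between replicates 1 and 2. With library set as a batch term in limma, 22 members were called higher in TAC, against 5.22% of all genes tested, and 2 were called higher in MSC, against 6.56%. The 22 were 12 hnRNP, 5 Snrp, 4 SR genes and 1 SF3 gene. The summed proliferation markers were higher in TAC in either set, as given above, although Ccna2 was at 25.2 in MSC and 21.1 in TAC in replicate 3, and their part in these values was not tested.

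**Figure D3:**
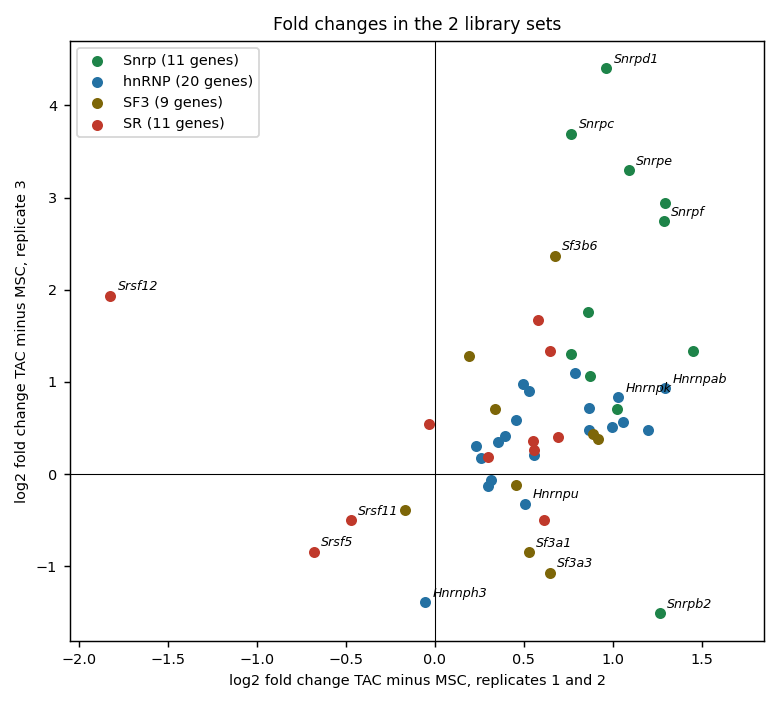
Each point is one of the 51 genes, coloured by class, with its log2 fold change TAC minus MSC in replicates 1 and 2 on the horizontal axis and in replicate 3 on the vertical axis. The upper right field holds 37 genes and the lower left holds 4, among them Srsf5 and Srsf11. Snrpd1, Snrpc and Snrpe lie far higher on the vertical axis than on the horizontal one.

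Other genes of the splicing machinery were read from lists of 174 genes, of which 169 were tested. At an unadjusted p under 0.05, 15 of the 169 were higher in TAC, against 5.42% of all genes tested, and 3 were higher in MSC, against 6.43%, while 0 passed the adjusted threshold. Their median log2 fold change was 0.31. The LSM proteins, which form rings related to the Sm ring on U6 RNA and on decaying mRNA, had the highest list median, 0.96 over 12 genes. Lsm6 was at 9.99, 8.75 and 4.29 in MSC and 22.4, 22.02 and 33.6 in TAC (log2 fold change 1.68, limma adjusted p = 0.179), and Lsm2 was at 4.66, 3.56 and 0.0998 in MSC and 11.5, 11.5 and 26.5 in TAC. The SMN complex and snRNP assembly factors, which load Sm proteins onto snRNA, had a median of 0.54 over 16 genes, and the U4, U5 and U6 proteins a median of 0.45 over 17. Among the latter Prpf8, the core scaffold of the spliceosome, was at 135, 135 and 38.4 in MSC and 212, 210.4 and 160 in TAC. Ptbp1, a repressor that binds pyrimidine tracts, was at 101, 101 and 76.6 in MSC and 166, 191 and 180 in TAC, without overlap (log2 fold change 0.95, limma adjusted p = 0.201). It belonged to the 40 other RNA-binding regulators, with a median of 0.37, of which 9 had an unadjusted p under 0.05, all higher in TAC.

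The lists around U1 and the kinases of SR proteins had medians below 0. The U1 and upstream splice site list had a median of -0.36 over 10 genes, with Snrnp70, the U1 protein that contacts SR proteins, at 260, 263 and 277 in MSC and 169, 179 and 205 in TAC. Its groups did not overlap, with MSC higher, and the log2 fold change was -0.54 (limma adjusted p = 0.503). Prpf40b, of the same list, was at 86.2, 76.1 and 75.9 in MSC and 41.5, 45.1 and 54.5 in TAC. The SR protein kinases had a median of -0.33 over 7 genes. Clk2, a nuclear kinase of SR proteins, was at 64.3, 57.9 and 122 in MSC and 41.5, 45.7 and 54.6 in TAC, whereas Srpk1, the mostly cytoplasmic one, was at 51.6, 53.0 and 41.0 in MSC and 53.7, 61.8 and 77.8 in TAC. The minor spliceosome list had a median of -0.21 over 9 genes, and Rnpc3, which encodes a protein of the U11 and U12 particle, was at 53.0, 49.8 and 41.5 in MSC and 25.3, 23.7 and 25.1 in TAC (log2 fold change -0.93, limma adjusted p = 0.201). The SR coactivators had a median of -0.19 over 11 genes, the U2 partners 0.31 over 12, the Prp19 complex with activation and step factors 0.32 over 29 and the exon junction complex 0.34 over 7.

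**Figure D4:**
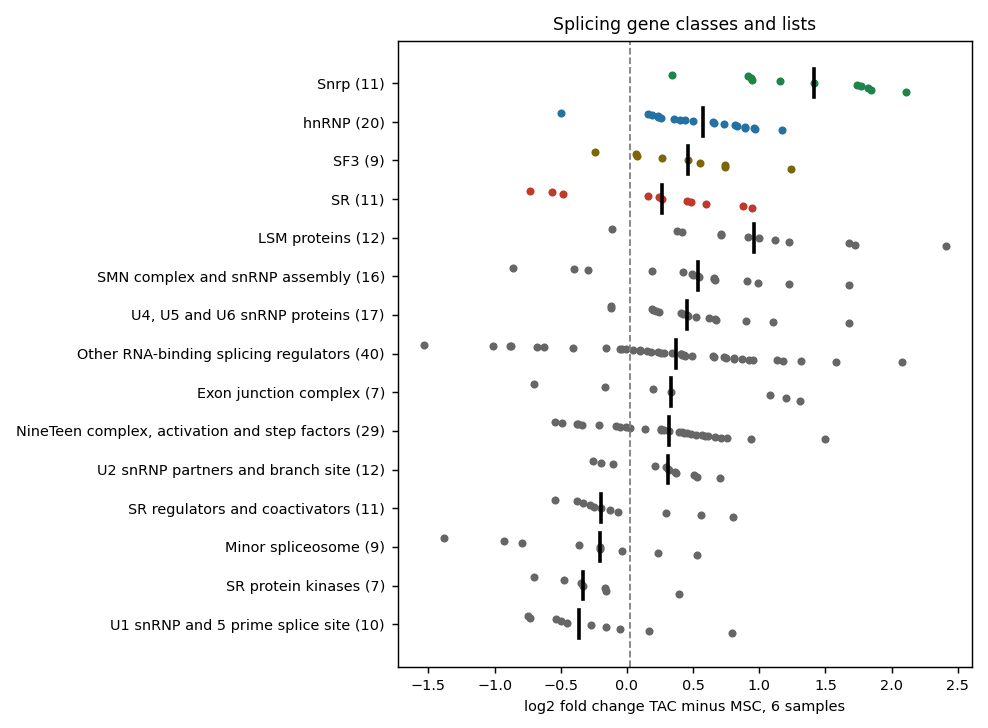
The log2 fold change TAC minus MSC over 6 samples is shown for the 4 classes in colour and for 11 lists of other splicing genes in grey, with the number of genes in brackets. Each point is a gene, the black bar is the median and the dashed line is the median of all genes tested, 0.026. The Snrp class and the LSM list lie farthest to the right, and the U1 list, the SR protein kinases, the minor spliceosome and the SR coactivators have medians left of 0.

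Levels were compared between genes only per kilobase, using 1 annotated transcript of each gene and the mean of each group. On that scale Hnrnpa2b1 was the highest of the 51 in both groups, at 277 in MSC and 311 in TAC, and Hnrnpa3 (117 and 221) was next among the hnRNP genes. Hnrnpa1 (93.5 and 188) and Hnrnph1 (105 and 134) followed, and their order in MSC turned in replicates 1 and 2 alone, at 95.2 and 92.6. The place of Hnrnpa3 depends on its transcript, which has 1140 bases, of which 1137 are coding. Those of Hnrnpa1 and Hnrnph1 have 1918 and 2225 bases, with 1119 and 1347 coding. Before division by length, Hnrnpa3 (134 and 251) was below Hnrnpa1 (179 and 360) and Hnrnph1 (233 and 298) in both groups. Srsf5 was the highest SR gene, at 253 in MSC and 149.6 in TAC, and stood second in MSC. Snrp genes ranged from 2.01 to 24.995 in MSC and from 4.62 to 48.9 in TAC. They were the shortest class, with a median transcript of 1161 bases and a median coding sequence of 378 bases, against 2587 and 1304 bases for hnRNP genes. The lowest member of each library held between 0 and 966 estimated reads.

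Some values may hold reads of other genes. Another annotated gene overlaps 26 of the 51, and the use of strand in counting was not stated, so reads of overlapping genes cannot be told apart. For 19 of the 51, at least 1 listed pseudogene matched the coding sequence at 90% identity or more over at least 75 bases, the length of a read. Snrpf had the largest such share, with a pseudogene at 33.8% of the level of the gene over the 6 samples and above it in MSC replicate 3. Hnrnpa3 had 27 listed pseudogenes and Hnrnpa1 had 6, the latter summing to 6.52% of the gene. The values of these genes are uncertain.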

How the data were processed

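Laser-captured incisor regions of 3 MSC and 3 TAC samples were sequenced as single-end reads of 75 cycles. The authors aligned trimmed reads to mm10 with TopHat 2.0.8. The submitters' processing notes also name CASAVA 1.8.2 and Partek. Which tool counted reads, and whether by strand, is not given in the sources used here. The deposited table is described as RPKM in the methods of the study, but its values did not behave as RPKM: low values were steps of the same size in genes of any length. The deposited values were therefore treated as a signal, namely reads plus 1 that the authors scaled by a constant for each library, with no division by gene length. Recovered reads were the value divided by the library's lowest value, minus 1. Of values up to 10 reads, 69.3% to 76.9% per library lay within 0.05 of a whole number, so no count model was used. The design had allowed for whole counts and this test was the one written for other units.

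Values were taken as log2(value + 1), and limma 3.58.1 in R 4.3.3 with a variance trend compared TAC with MSC, two-sided, in the 15391 genes whose mean reached 1. P-values were Benjamini-Hochberg adjusted over all genes tested, with 0.05 as the threshold. For low genes the pseudocount of 1 makes fold changes smaller. The members and lists were chosen with earlier results of these data known. Members with an unadjusted p under 0.05, the largest change of each class in either direction, a set of well-known members, and at most 2 genes of each other list were named with all values, and other members were added after their values were seen. The methods give 3 mice per group, but the labels do not tie replicates to animals, and since replicates 1 and 2 were nearly alike the p-values may in part measure technical spread. Same-numbered samples were checked for shared deviations from the group means, with correlations across genes of 0.477, 0.465 and 0.517. MSC replicate 1 with TAC replicate 2 gave 0.462, and replicate 3 against the others -0.485 to -0.500, so the shared deviation was that of replicate 3. The labels give only the numbers, and the methods speak of pairs without saying what a pair shares. The difference between library sets was tested as an interaction term with 2 residual degrees of freedom. Alternatives were another pseudocount, other filters and scalings, no variance trend, a replicate block, library set as a batch, replicates 1 and 2 only, each sample left out, and, chosen after seeing the data, replicates 1 and 2 averaged. The fits were also run on simulated data with independent replicates of equal spread. Those data held no general shift of replicate 3, so they cannot show how the fits perform on the present libraries. Transcript lengths came from GENCODE release M21 and pseudogene matches from BLAST 2.17.0.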

Additional observations from a re-analysis of the deposited data

Results flagged for a closer look

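The fold change TAC minus MSC differed between replicate 3 and replicates 1 and 2, by limma's interaction term at an adjusted p under 0.05 over all genes tested, in 33 of the 51 genes, against 57.2% of all genes tested. In 9 of them the 2 sets also had opposite signs, against 27.8% of all. The library sets are not groups of the study, and the test rests on the small spread between replicates 1 and 2.

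The difference, replicate 3 minus replicates 1 and 2 on the log2 scale, was -2.77 for Snrpb2, a U2 protein, and -1.72 and -1.37 for the SF3a subunits Sf3a3 and Sf3a1. It was -1.11 for Srsf10, -0.83 for Hnrnpu, -0.43 for Hnrnpdl and -0.38 for Hnrnpa2b1. All of these were higher in TAC in replicates 1 and 2 and lower in TAC in replicate 3. The opposite order held for Srsf12, with a difference of 3.76, and for Srsf4, with a difference of 0.57.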

How the results depend on the processing

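Among all genes, 65 were called. The count was 38 with a pseudocount of 0.1, 29 without the variance trend, 229 with the replicate block, 1814 with library set as a batch term, 6796 with replicates 1 and 2 only, 10 with replicates 1 and 2 averaged, and 0 to 292 with 1 sample left out, the highest without MSC replicate 3. Of the splicing factor genes 0 were called, and 2 with the replicate block, 24 with the batch term and 48 with replicates 1 and 2 only, where the error comes from nearly equal libraries. No sample left out gave a call. At an unadjusted p under 0.05, 19 were higher in TAC, against 12 without the trend, 36 with the batch term, 44 with replicates 1 and 2 only, 3 with these averaged and 7 to 23 with 1 sample left out. The share of all genes higher in TAC was 5.42%, and 5.2%, 14.2%, 23.4% and 1.83% under these settings and between 2.61% and 8.63% with 1 sample left out. The count was 11, 10, 8 and 7 without MSC replicate 1, MSC replicate 2, TAC replicate 1 and TAC replicate 2. Higher in MSC were 0, against 2 with the block, 3 with the batch term, 4 with replicates 1 and 2 only and 0 to 1 with 1 sample left out. The share of all genes higher in MSC was 6.43%, and 10.9%, 15.4% and 28.4% under these settings and between 4.04% and 11.6% with 1 sample left out. Genes without overlap and TAC above numbered 24, beside 12.3% of all genes, and 45 in replicates 1 and 2 only, beside 33.4% of all genes, since fewer samples overlap less often. Of the 169 other splicing genes 15 were higher in TAC, against 33, 54, 84 and 2 with the block, the batch term, replicates 1 and 2 only and these averaged, and 6 to 30 with 1 sample left out. Higher in MSC were 3, against 15, 24, 34 and 0, and 1 to 7 with 1 sample left out, beside the shares of all genes given above and 2.17% with replicates 1 and 2 averaged. For higher in TAC the share of all genes with the block was 9.43%. Median log2 fold changes with 1 sample left out were 0.18 to 0.66 for SR, 0.47 to 0.76 for hnRNP, 0.32 to 0.74 for SF3 and 0.96 to 1.57 for Snrp genes. The median of all genes was itself shifted by leaving out a sample, to between -0.13 and 0.14. The count of genes that differed between library sets was 8796, and 5392 where a mean of at least 10 was required, with 8185 genes tested.

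Signs turned for some genes that were not called. Srsf4 was at -0.031 with replicates 1 and 2 only. With these averaged, Sf3a1 was at -0.16, Sf3a3 at -0.22, Snrpb2 at -0.13 and Srsf12 at 0.064. With 1 sample left out the log2 fold change ranged from -0.33 to 0.83 for Sf3a1, -0.29 to 0.74 for Sf3a3, -0.24 to 0.98 for Sf3b2, -0.46 to 0.045 for Sf3b1, -0.00056 to 0.53 for Sf3b5, -0.093 to 1.04 for Snrpb2, -0.80 to 0.047 for Hnrnph3, -0.027 to 1.02 for Hnrnpm, -0.019 to 0.51 for Hnrnpr, -0.19 to 0.75 for Srsf6 and -1.63 to 0.030 for Srsf12. The cause was not tested. The replicate block changed no other call of a named splicing factor gene. Low members rest on fewer reads, such as Srsf12 with 73 to 966 estimated reads in TAC and 335, 383 and 32 in MSC. Its lowest read number was in MSC replicate 3, the MSC library with the most reads.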

Other observations

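Of the 53 symbols that fit the name patterns, the 2 set aside were read as well. Snrpn, an imprinted gene for a protein related to SmB, was at 6.67, 7.94 and 9.86 in MSC and at 7.13, 6.20 and 6.13 in TAC, and the groups overlapped (log2 fold change -0.28, SE 0.41, limma adjusted p = 0.862). Snrpert, listed as a processed pseudogene, was at 0.560, 0.464 and no read in MSC and at 1.19, 2.17 and 2.001 in TAC. As a share of protein-coding reads, the 51 genes took 1.14%, 1.13% and 1.51% in MSC and 1.57%, 1.56% and 1.62% in TAC.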
